A study of Mus musculus with 9 samples.

Results

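Ribosome biogenesis and MYC target genes were followed in MLL-AF9-OSKM leukemia cells during forced expression of the reprogramming factors. Nearly all of the 33 genes considered code for nucleolar proteins that transcribe, modify, cut and fold ribosomal RNA, Pprc1 being a coactivator, and many of them are known targets of MYC. Each was read from the probe set that carries its symbol alone in the array annotation, and where a gene had more than 1 such probe set, from the one with the highest mean over all arrays. By this rule 29 of the 33 genes were measured, out of 22180 genes measured in all. Fbl, Tsr1 and Mrto4 lay only on probe sets shared with other symbols, and Npm3 was not listed in the annotation, so no value is given for these 4.

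The cells carry the MLL-AF9 fusion, an oncogene of acute myeloid leukemia, marked by GFP. They also carry Oct4, Sox2, Klf4 and c-Myc (OSKM) under a tetO promoter that is turned on by doxycycline (Dox). They were grown in sub-lethally irradiated C57BL/6J recipient mice and sorted from the spleen. The arrays fall into 3 groups of 3: mice given Dox for 72 h, mice given Dox for 48 h, and control mice without Dox. Cells of all 3 groups carry both the fusion and the OSKM cassette. No group received Dox without the cassette, so the effect of the drug and that of the 4 factors cannot be told apart. The labels call the replicates biological without saying whether each came from its own mouse, and p-values therefore measure the spread between these samples. In sorted bulk cells, a lower signal from fewer cells of a type cannot be told apart from less RNA per cell.

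Ribosomes are built in the nucleolus, where RNA polymerase I makes one long precursor of the ribosomal RNAs. Small nucleolar ribonucleoproteins (snoRNPs) of the box C/D and box H/ACA kinds place methyl groups and pseudouridines on it. A large complex called the small subunit processome folds and cuts the part that becomes the 40S subunit, and separate factors mature the 60S subunit. MYC binds the sequence CACGTG, the E-box, at many of these genes and raises their transcription with cell growth, and leukemia cells are known for high ribosome production.

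The promoters of the list were searched for this E-box because MYC is both the known regulator of the list and one of the induced factors. RefSeq promoters of mouse (assembly GRCm38.p6), from 250 bases before to 50 bases after a transcription start, were found for 29 of the 33 genes, 32 promoters in all. CACGTG, a palindrome that reads the same on both strands, was present in 6 of them (18.8%), against 7.15% of all 32851 promoters. Many genes of the list were known as MYC targets beforehand, so a higher share may come from the choice of genes. The related letters CACGCG, searched on both strands, stood in 7 of the 32 promoters (21.9%), against 9.27% of all promoters. GGGNGTGG, letters bound by Klf4 and searched on both strands, stood in 5 (15.6%), against 17.6% of all promoters. The median GC content of the list's promoters was 57.8%, against 52.7% for all promoters. The 6 windows with an E-box are shown because they are where the list meets the motif of an induced factor. Each is 30 bases long, 5′ to 3′ on the gene's strand, with the E-box in capitals.
Wdr43, chr17:71616220-71616249, plus strand: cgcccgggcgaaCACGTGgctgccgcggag
Pes1, chr11:3963965-3963994, plus strand: ccctaggcagggCACGTGcgggaggaagta
Tsr1, chr11:74898092-74898121, plus strand: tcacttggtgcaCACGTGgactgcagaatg
Mybbp1a, chr11:72441347-72441376, plus strand: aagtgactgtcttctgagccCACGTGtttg
Utp20, chr10:88826765-88826794, minus strand: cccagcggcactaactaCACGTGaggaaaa
Nop2, chr6:125131811-125131840, plus strand: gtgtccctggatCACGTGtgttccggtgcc
Among the 29 genes with a promoter found, these 6 are all that had an E-box in it, and Tsr1 among them had no measured value. These 29 are therefore not the same as the 29 measured genes, and the rest of the list was not searched. A match of letters does not show that a factor is bound there. The 250 bases before the start of Gar1, the gene of the list that passed the test, are given for comparison, and none of the 3 motifs stands in them or in the 50 bases after the start.
Gar1, chr3:129831397-129831646, minus strand: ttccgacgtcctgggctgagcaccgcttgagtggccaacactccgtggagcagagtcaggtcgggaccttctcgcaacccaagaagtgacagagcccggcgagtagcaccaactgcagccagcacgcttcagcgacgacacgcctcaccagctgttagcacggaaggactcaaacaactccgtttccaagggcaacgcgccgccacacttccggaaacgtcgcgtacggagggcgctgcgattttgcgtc

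Few genes of the list changed past the test. On the log2 scale of the deposited values, 1 of the 29 genes was higher in Dox 72 h cells than in control cells past an adjusted p of 0.05 (1.16% of all 41345 probe sets were), and that gene was Gar1, a core protein of the box H/ACA snoRNPs. None was lower in Dox 72 h cells (background 1.33%). In Dox 48 h cells 0 of 29 were lower than in control cells (background 0.481%) and 0 were higher (background 1.12%). Between Dox 72 h and Dox 48 h cells, 0 were lower (background 0.208%) and 0 higher (background 0.00726%). The moderated F test of limma over the 3 groups called 0 of the 29 genes (background 2.24%).

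At an unadjusted p under 0.05, limma called 5 genes lower and 1 higher in Dox 72 h than in control cells, against a background of 9.57% lower and 7.20% higher. In Dox 48 h cells it called 7 lower and 0 higher, against 4.95% and 5.25%. For Dox 72 h against Dox 48 h cells limma called 1 lower (background 7.06%) and 1 higher (background 5.21%), and by the F test 7 of 29 (background 15.8%). As shares of the list, the lower genes made up 17.2% at 72 h and 24.1% at 48 h, above the background in both, and the higher genes lay below it in both. This background is not matched for signal: all 29 genes had a mean above 3.81, the median over all probe sets. With dim probe sets left out, 797 of 20673 were lower at 72 h past the adjusted threshold, against 549 of 41345 with them. The unadjusted share among bright probe sets was not counted. The differences were small, and the count of each sign depended on the scaling. A lower mean than in control cells was found for 21 of the 29 genes at 72 h (52.0% of all probe sets, and 48.0% were higher) and for 24 at 48 h (54.6%, and 45.3% were higher). Of the 29, 14 had a lower mean in Dox 72 h than in Dox 48 h cells (49.5%, and 50.4% were higher). With arrays centred on their medians, 18 of 29 had a lower mean than in control cells at each time, and without control replicate 2 the counts were 20 at 72 h and 19 at 48 h. The share of all probe sets with a lower mean was not counted in these settings. The median log2 fold change over the list was -0.14 at 72 h and -0.10 at 48 h, against -0.01 and -0.02 over all probe sets. Median centring gave -0.05 at 72 h and -0.07 at 48 h, against 0.08 and 0.02 over all probe sets. At 72 h the median was -0.08 without control replicate 2 and -0.08 without Dox 72 h replicate 1. At 48 h it was -0.07 without control replicate 2 and -0.05 without Dox 48 h replicate 2. Between Dox 72 h and Dox 48 h cells it was 0.02. Both comparisons with control share the same 3 control arrays.

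**Figure D1:**
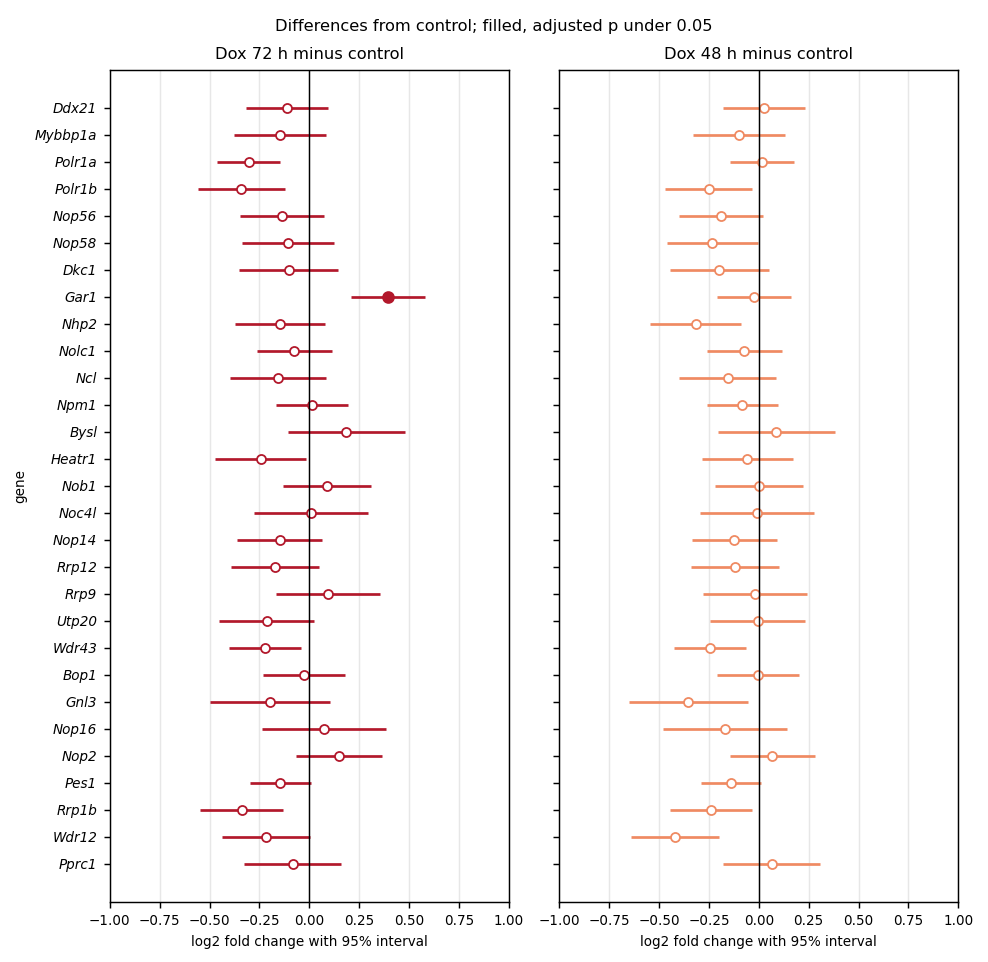
Log2 fold change (x axis) of each of the 29 measured genes with its 95% interval, Dox 72 h minus control on the left and Dox 48 h minus control on the right, ordered by role. The filled point, Gar1 at 72 h, is the one past an adjusted p of 0.05; no interval reaches a 2-fold change, which is at the edges of the axis.

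The 3 arrays of a group limit what could be seen, and the intervals show how far. The 95% interval of a fold change reached a median of 0.22 to either side on the log2 scale, and a range of 0.152 to 0.31 over the genes. All 29 intervals lay inside a 2-fold change in each comparison, and inside a 1.5-fold change for 29 genes at 72 h, for 27 at 48 h and for 28 between Dox 72 h and Dox 48 h. The lowest bound at 72 h was -0.56 and the highest 0.58, and the corresponding bounds at 48 h were -0.65 and 0.38. For the probe sets used, a change of 2-fold lay outside every interval, whereas changes of the size seen here were mostly within the spread of the arrays. This does not hold for every probe set of these genes. A dimmer probe set of Nop56 had a 95% interval of -0.76 to 1.59 at 72 h and -1.80 to 0.55 at 48 h.

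Arrays of a group differed from each other across most of the list at once. Dox 72 h replicate 1 was the lowest of its group for 24 of the 29 genes (34.4% of all probe sets). Dox 48 h replicate 1 was the highest of its group for 27 (38% of all probe sets), and control replicate 2 was the highest of its group for 18 (32.7%). The mean over the 29 genes was 8.19, 8.31 and 8.32 in the Dox 72 h arrays, 8.38, 8.17 and 8.20 in the Dox 48 h arrays and 8.37, 8.43 and 8.30 in the control arrays. These ranges overlap, since Dox 48 h replicate 1 lay among the control arrays and the other arrays of its group below all of them. Without Dox 48 h replicate 1, the median log2 fold change of the list at 48 h was -0.15, and 27 of 29 genes had a lower mean than in control cells. The median over all probe sets was then -0.01, and their share with a lower mean was not counted.

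**Figure D2:**
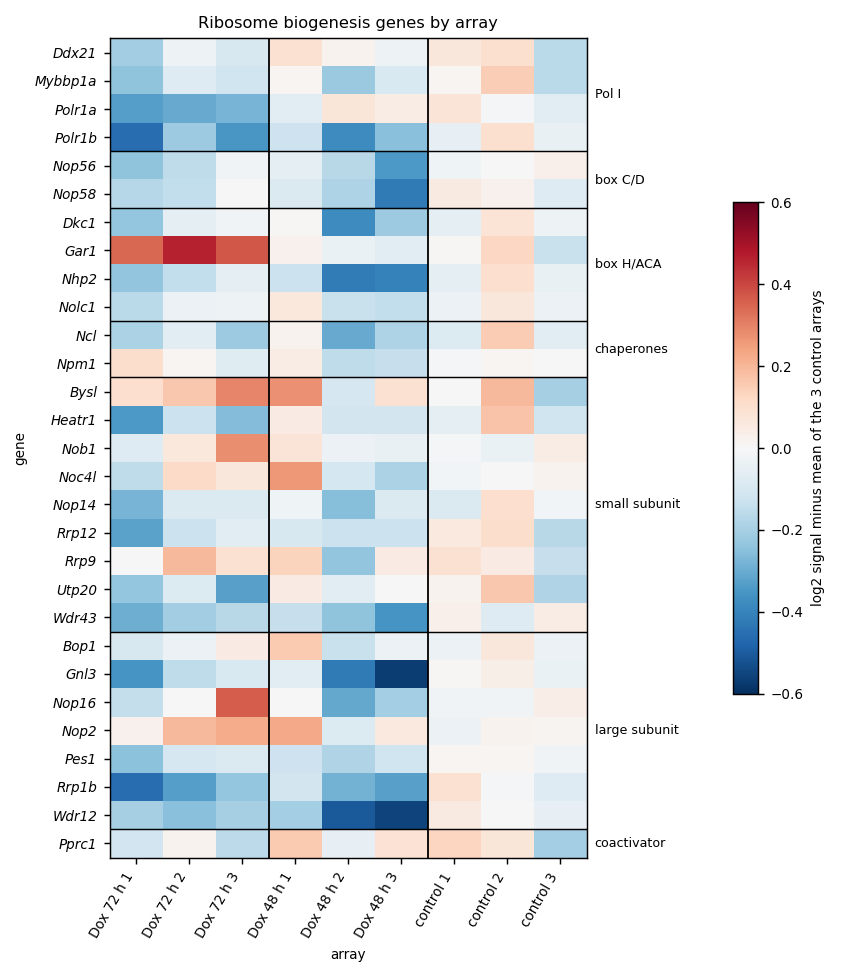
Log2 signal of each of the 29 genes (rows, grouped by role) on each of the 9 arrays (columns: Dox 72 h, Dox 48 h, control), as the difference from the mean of the 3 control arrays. Red is higher and blue lower than control; Gar1 is red on all 3 arrays at 72 h, and Dox 48 h replicate 1 is redder than the other arrays of its group for most genes.

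RNA polymerase I and the proteins around it came first in the order of the pathway. Polr1a, the largest subunit of the polymerase, had signals of 7.69, 7.72 and 7.74 in Dox 72 h cells, 7.95, 8.09 and 8.06 in Dox 48 h cells and 8.10, 8.01 and 7.95 in control cells. The 72 h arrays lay below all others, and the 48 h and control arrays overlapped. The log2 fold change at 72 h was -0.30 (SE 0.0689, 95% interval -0.46 to -0.15, adjusted p = 0.0654), which missed the threshold, and at 48 h it was 0.02. Polr1b, the second largest subunit, read 6.11, 6.35 and 6.22 in Dox 72 h cells, 6.44, 6.19 and 6.31 in Dox 48 h cells and 6.51, 6.66 and 6.52 in control cells. Both Dox groups lay below every control array. Its log2 fold changes of -0.34 and -0.25 did not pass (adjusted p = 0.115 at 72 h and 0.387 at 48 h). Mybbp1a, a nucleolar protein that restrains transcription of ribosomal RNA genes, differed by -0.15 at 72 h and -0.10 at 48 h. Ddx21, an RNA helicase of the nucleolus, differed by -0.11 and 0.03, and the arrays of both genes overlapped in both comparisons.

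The snoRNP proteins held the gene that rose. Gar1 had signals of 6.71, 6.83 and 6.74 in Dox 72 h cells, against 6.39, 6.33 and 6.30 in Dox 48 h cells and 6.38, 6.49 and 6.23 in control cells. All 3 arrays at 72 h stood above the other 6, which overlapped with each other. Mean signal was 6.76 ± 0.0601 in Dox 72 h cells and 6.37 ± 0.13 in control cells (SD, n = 3 each), a rise of 1.31-fold (log2 fold change 0.39, SE 0.0807, 95% interval 0.21 to 0.58, adjusted p = 0.0488 by limma). The call stood just inside the threshold and was lost when any 1 of the 9 arrays was left out (log2 fold change 0.33 to 0.46, adjusted p = 0.0608 to 0.145). It was also lost with quantile normalization (adjusted p = 0.0691), in a fit of the 2 groups alone (adjusted p = 0.12) and with an intensity trend (adjusted p = 0.0563). Between Dox 72 h and Dox 48 h cells the difference was 0.42 (adjusted p = 0.105).

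None of the partners of Gar1 in the box H/ACA particle passed the test at either time. Nhp2, another core protein, read 8.39, 8.48 and 8.57 in Dox 72 h cells, 8.50, 8.21 and 8.22 in Dox 48 h cells and 8.57, 8.73 and 8.58 in control cells. Its arrays at 48 h lay below all control arrays and those at 72 h overlapped with them. The log2 fold change was -0.15 at 72 h (adjusted p = 0.507) and -0.32 at 48 h, which did not pass (0.26). Dkc1, the pseudouridine synthase of the particle, differed by -0.10 at 72 h and -0.20 at 48 h, and Nolc1, a chaperone that brings snoRNPs to the nucleolus, by -0.08 and -0.07. In the box C/D particle, the scaffold protein Nop58 had signals of 9.95, 9.97 and 10.12 in Dox 72 h cells, 10.03, 9.93 and 9.69 in Dox 48 h cells and 10.17, 10.14 and 10.04 in control cells. Its arrays overlapped with control at 72 h and lay below it by a narrow margin at 48 h. Its log2 fold changes were -0.11 and -0.23 (adjusted p = 0.642 and 0.478). Its partner Nop56 differed by -0.14 at 72 h and -0.19 at 48 h, neither past the test.

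**Figure D3:**
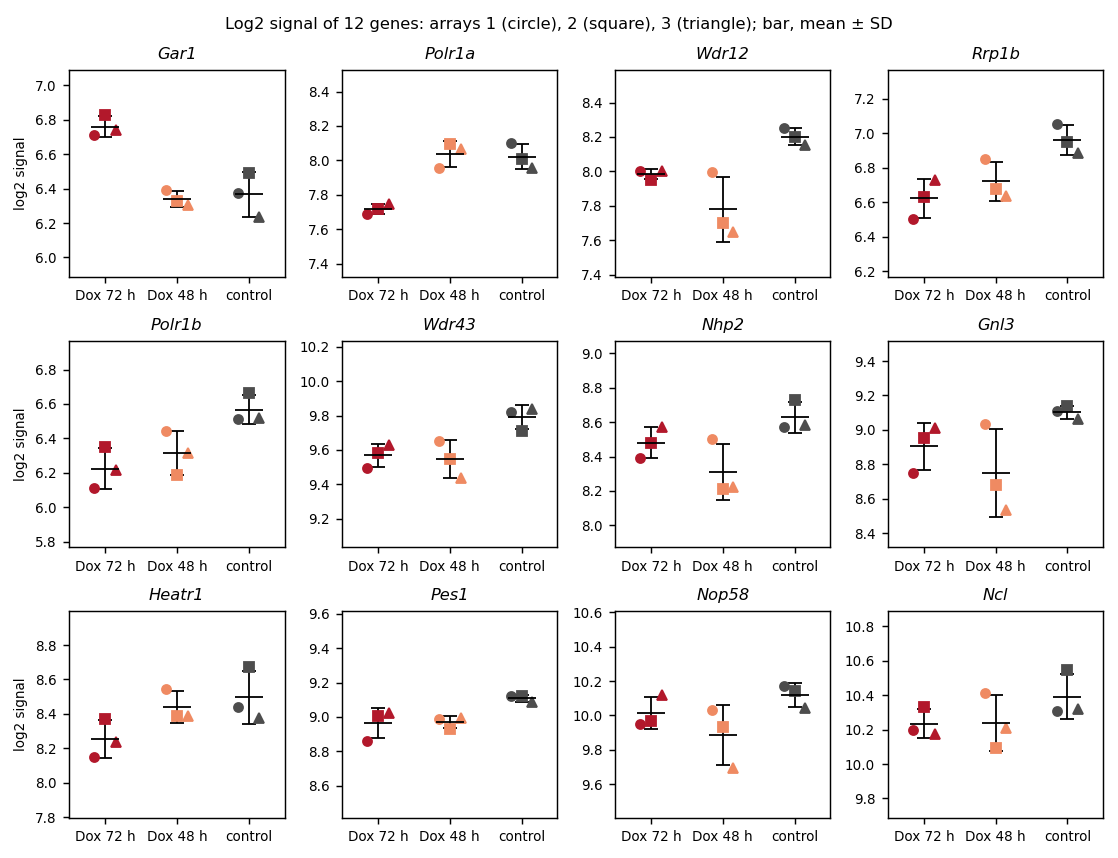
Log2 signal of 12 of the genes described array by array, with Dox 72 h left of Dox 48 h left of control. Symbols are single arrays, long bars the group mean and whiskers 1 SD over 3 arrays; Gar1 at 72 h stands above both other groups and Polr1a at 72 h below them, and each panel has its own range of values.

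Nucleolin and nucleophosmin, abundant chaperones of ribosomal RNA and histones in the nucleolus, did not pass the test at either time. Ncl read 10.20, 10.33 and 10.17 in Dox 72 h cells, 10.41, 10.09 and 10.21 in Dox 48 h cells and 10.31, 10.54 and 10.32 in control cells. Its arrays overlapped throughout, with log2 fold changes of -0.16 at both times. Npm1 differed by 0.01 at 72 h (95% interval -0.16 to 0.19) and -0.08 at 48 h (95% interval -0.26 to 0.10). A dimmer, second probe set of Npm1 differed by -0.42 and -0.16 (adjusted p = 0.181 at 72 h and 0.81 at 48 h), so the probe sets of this gene did not give one value. The other 2 probe sets of Nop56 also had the opposite sign to the brightest, with differences from control of 0.42 and 0.44 at 72 h (adjusted p = 0.732 and 0.348). So had the second of Ddx21 (0.10), and none of these passed.

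Among the 9 measured factors of the small subunit, the median log2 fold change was -0.15 at 72 h and -0.02 at 48 h. Wdr43, a part of the processome that is also needed for the polymerase to work, read 9.50, 9.58 and 9.63 in Dox 72 h cells, 9.65, 9.55 and 9.44 in Dox 48 h cells and 9.82, 9.71 and 9.84 in control cells. Both Dox groups lay below every control array, by -0.22 and -0.24 on the log2 scale (adjusted p = 0.205 at 72 h and 0.278 at 48 h). Heatr1, which joins the processome to transcription, read 8.15, 8.37 and 8.24 in Dox 72 h cells, 8.55, 8.39 and 8.39 in Dox 48 h cells and 8.44, 8.67 and 8.38 in control cells. It was lower at 72 h by a margin smaller than its spread and overlapped with control at 48 h. Its log2 fold changes were -0.24 (adjusted p = 0.268) and -0.06. Utp20, a large scaffold of the processome, differed by -0.21 at 72 h and -0.01 at 48 h. Rrp9, a protein of the U3 snoRNP, differed by 0.09 at 72 h and -0.02 at 48 h. Rrp12, an export factor of pre-ribosomes, differed by -0.17 and -0.12, Nop14 by -0.15 and -0.12, and its partner Noc4l by 0.01 and -0.01. Bysl, a late factor of the 40S subunit, differed by 0.19 and 0.09, and Nob1, the nuclease that makes the end of 18S ribosomal RNA, by 0.09 at 72 h. None of the 9 passed the test.

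Of the 7 measured factors of the large subunit, the median log2 fold change was -0.14 at 72 h and -0.17 at 48 h. Pes1, Bop1 and Wdr12 form the PeBoW complex, which is needed to process the RNA of the 60S subunit. Wdr12 read 8.00, 7.95 and 8.00 in Dox 72 h cells, 8.00, 7.70 and 7.65 in Dox 48 h cells and 8.25, 8.20 and 8.15 in control cells. Every Dox array lay below every control array, with Dox 48 h replicate 1 far above the other arrays of its group. The log2 fold change of Wdr12 was -0.22 at 72 h (adjusted p = 0.305) and -0.42 at 48 h (95% interval -0.64 to -0.20, adjusted p = 0.093). Without Dox 48 h replicate 1 it was -0.53 at 48 h (adjusted p = 0.0227), past the threshold. That was the only 1 of 9 fits with 1 array left out in which Wdr12 passed at 48 h. Over the 9 fits its log2 fold change was -0.53 to -0.36 and its adjusted p by limma 0.0227 to 0.276. Pes1 read 8.86, 9.01 and 9.02 in Dox 72 h cells, 8.99, 8.93 and 8.99 in Dox 48 h cells and 9.12, 9.12 and 9.09 in control cells. No Dox array reached the control arrays, in a small shift of -0.14 at both times that did not pass (adjusted p = 0.321 at 72 h and 0.546 at 48 h). Bop1, the third subunit, differed by -0.03 at 72 h (95% interval -0.23 to 0.18) and had a 95% interval at 48 h of -0.21 to 0.20.

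Rrp1b, a nucleolar protein of 60S processing, had signals of 6.50, 6.63 and 6.73 in Dox 72 h cells, 6.85, 6.68 and 6.64 in Dox 48 h cells and 7.05, 6.95 and 6.88 in control cells. No Dox array reached the control arrays. Log2 fold changes were -0.34 and -0.24 (adjusted p = 0.103 at 72 h and 0.387 at 48 h). Gnl3, or nucleostemin, a GTP-binding protein abundant in stem and cancer cells, read 8.75, 8.95 and 9.01 in Dox 72 h cells, 9.03, 8.68 and 8.53 in Dox 48 h cells and 9.11, 9.14 and 9.06 in control cells. Its Dox arrays also lay below control, by -0.20 and -0.35 (adjusted p = 0.497 at 72 h and 0.368 at 48 h), with a wide spread among the 48 h arrays. Nop2, a methyltransferase of the large ribosomal RNA, had a higher mean in both Dox groups, by 0.15 at 72 h and 0.07 at 48 h. Nop16 differed by 0.07 and -0.17, and neither gene passed the test. Pprc1, the coactivator, read 6.78, 6.91 and 6.74 in Dox 72 h cells, 7.05, 6.84 and 6.98 in Dox 48 h cells and 7.02, 6.96 and 6.69 in control cells. Its arrays overlapped, and its log2 fold changes were -0.08 and 0.07.

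Counted by arrays instead of p-values, 8 of the 29 genes had every Dox 72 h array below every control array (background 11.6%), and 2, Gar1 and Nop2, had every one above (background 9.10%). At 48 h, 9 lay wholly below (background 8.00%) and 0 wholly above (background 7.37%). Between Dox 72 h and Dox 48 h cells, Polr1a, Heatr1 and Utp20 lay wholly below (background 8.15%) and Gar1 wholly above (background 7.13%). Of the 9 genes below control at 48 h, the 6 Wdr12, Rrp1b, Polr1b, Wdr43, Gnl3 and Pes1 were also below it at 72 h. Both comparisons use the same control arrays, so the times are not independent. The share of all probe sets below control at both times was not counted, so this overlap has no background.

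Myc itself did not pass the test at either time. Its probe set read 8.12, 8.29 and 8.23 in Dox 72 h cells, 8.29, 8.12 and 8.04 in Dox 48 h cells and 8.11, 8.22 and 8.53 in control cells, and the arrays of all 3 groups overlapped. The log2 fold change was -0.07 at 72 h (95% interval -0.35 to 0.21, adjusted p = 0.819) and -0.14 at 48 h (95% interval -0.41 to 0.14, adjusted p = 0.81). Whether this probe set reads the c-Myc of the cassette as well as the mouse gene was not tested.

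Other genes of the pathway, listed by role, were set beside the 29. Among 36 further factors of the large subunit, 3 fell at 72 h past the adjusted threshold (the background is 1.33%) and 0 did at 48 h. Lsg1, a GTPase of late 60S maturation, read 7.90 in each of the 3 Dox 72 h arrays, 7.99, 7.95 and 7.99 in Dox 48 h cells and 8.25, 8.22 and 8.19 in control cells. It fell by 0.32 on the log2 scale at 72 h (adjusted p = 0.0282), with no overlap between the groups. Nmd3, the export adaptor of the 60S subunit, fell by 0.43 on the log2 scale at 72 h (adjusted p = 0.036), and Urb2, a nucleolar factor of 60S assembly in yeast, fell by 0.39 (adjusted p = 0.0389). All 3 calls were lost when arrays were centred on their medians (adjusted p = 0.118 to 0.122) and in a fit of the 2 groups alone (adjusted p = 0.062 to 0.0915). With 1 array left out they stood in 1, 2 and 0 of 9 fits for Lsg1, Nmd3 and Urb2. That of Nmd3 was also lost as the mean of its probe sets (adjusted p = 0.236). The median of these 36 genes was 0.01 at 72 h and -0.11 at 48 h.

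No gene passed the adjusted threshold in either comparison with control among 13 further polymerase I factors, 35 of the small subunit, 11 of the snoRNPs, 12 of the MYC network, 36 other MYC targets, 19 replication and mitosis genes and 64 cytosolic ribosomal protein genes. At an unadjusted p under 0.05, limma called 8 of the 36 other MYC targets lower and 3 higher at 72 h (22.2% and 8.33%, against a background of 9.57% and 7.20%). At 48 h it called 6 lower and 0 higher (16.7% and 0%, against 4.95% and 5.25%). Slc3a2, a subunit of amino acid transporters, had a log2 fold change at 72 h of -0.42 (adjusted p = 0.0527), and Tfrc, the transferrin receptor, of -0.43 (adjusted p = 0.0769). That of Cdc25a, a phosphatase that starts replication, was -0.33 (adjusted p = 0.0763). Of the ribosomal protein genes, 8 had an unadjusted p under 0.05 and a higher value at 72 h and 2 a lower one (12.5% and 3.12%, against the same background), and at 48 h the counts were 2 and 1. Rps15 differed by 0.58 (adjusted p = 0.0995), and the median over the 64 was 0.09. The probe set of Rps15 was dim, with means of 3.62 in Dox 72 h and 3.04 in control cells, below the median over all probe sets of 3.81. Rpl32l among the lower genes at 72 h and Rpl10l among the higher ones also had group means below it. The medians at 72 h were -0.14 for replication and mitosis genes, -0.08 for the MYC network and 0.00 for other MYC targets. They were 0.06 for the 13 polymerase I factors, -0.03 for the 35 of the small subunit and 0.02 for the 11 of the snoRNPs. In these last lists 3, 19 and 5 genes had a lower mean at 72 h (23.1%, 54.3% and 45.5%, background 52.0%). At 48 h their medians were -0.03, -0.09 and -0.08, with lower means for 69.2%, 85.7% and 90.9% (background 54.6%).

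**Figure D4:**
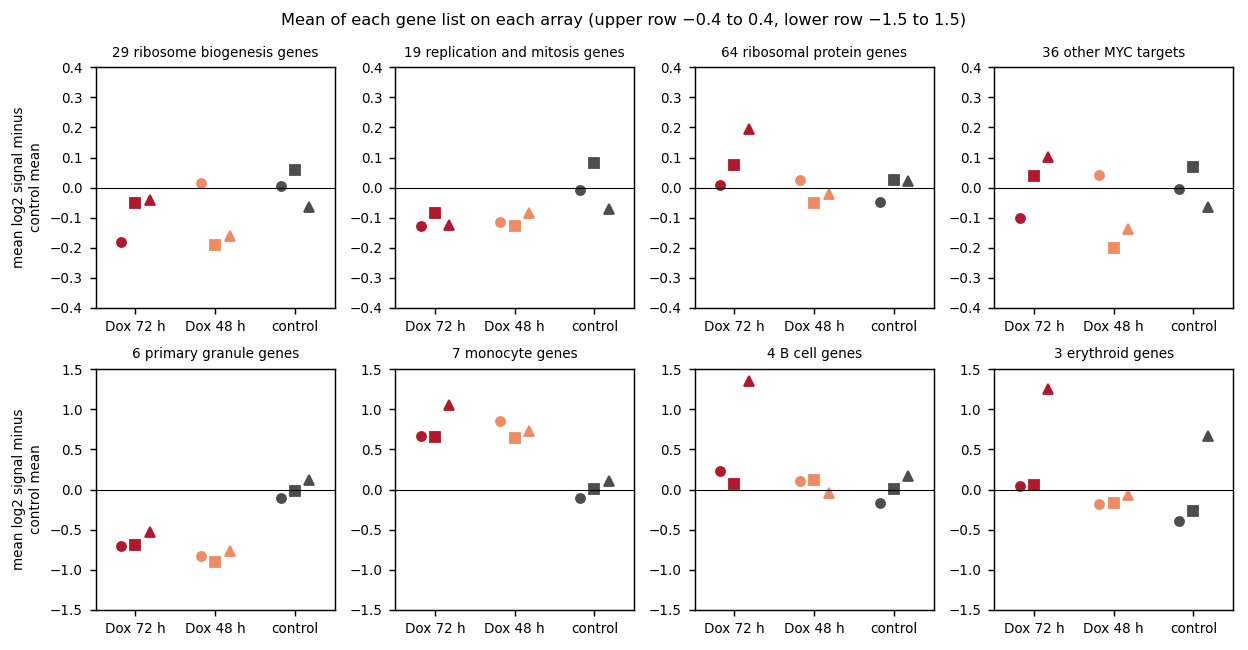
Mean log2 signal of 8 gene lists on each array minus the mean of the 3 control arrays, with Dox 72 h left of Dox 48 h left of control (circle, square and triangle are replicates 1, 2 and 3; the lower panels have a wider axis). The ribosome biogenesis means overlap between the groups, the primary granule and monocyte means separate Dox from control arrays, and Dox 72 h replicate 3 stands out for B cell and erythroid genes.

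Markers of differentiation and of other cells moved on the same arrays. Of 6 primary granule genes, 4 were lower in Dox 72 h (background 1.33%) and 5 in Dox 48 h (background 0.481%) than in control cells. The list had means of 10.52 to 10.68 at 72 h, 10.31 to 10.45 at 48 h and 11.11 to 11.34 in control arrays. Of 7 monocyte and macrophage genes, 3 were higher at 72 h (background 1.16%) and 4 at 48 h (background 1.12%). The list had means of 8.01 to 8.41 at 72 h, 7.99 to 8.20 at 48 h and 7.24 to 7.46 in control arrays. The part of this shift in the values of the ribosome biogenesis genes was not tested. The MLL-AF9 program (Hoxa9, Hoxa10, Meis1, Mef2c and Myb) had list means of 8.96 to 9.11 at 72 h, 8.99 to 9.16 at 48 h and 9.17 to 9.23 in control arrays, with 0 of 5 genes called. Dox 72 h replicate 3 had the highest mean of the B cell, T cell and erythroid markers of all arrays (6.04, 4.89 and 5.72). Among control arrays, replicate 3 was the highest for all 3 lists (4.84, 4.33 and 5.13). The B cell gene Cd79b, part of the B cell receptor, was higher at 72 h on all 3 arrays (8.47, 8.56 and 8.96) than in control arrays (7.91, 8.05 and 8.00), with adjusted p = 0.0329. The rest of its list, Cd79a, Ms4a1 and Pax5, overlapped with control at 72 h (adjusted p = 0.53, 0.532 and 0.648 by limma). Within the Dox 72 h group these genes were highest on replicate 3. Without Dox 72 h replicate 3 and control replicate 3, a setting chosen after seeing the data, 0 of 29 genes were called in either comparison with control. The mean was then lower than in control cells for 23 of 29 at 72 h and 26 of 29 at 48 h. The median log2 fold change over all probe sets was -0.01 at 72 h and -0.02 at 48 h, and their share with a lower mean was not counted.

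Several of these genes carry small nucleolar RNAs, which guide modification of ribosomal RNA, inside their introns. Probe sets with a single symbol were found for 10 such snoRNAs in Nop56, Nop58, Ncl, Wdr43, Gnl3 and Tsr1, and signal from a spliced snoRNA cannot be told apart from that of the unspliced host transcript. Snord110, inside Nop56, read 11.09, 11.11 and 11.48 in Dox 72 h cells, 10.99, 10.94 and 10.87 in Dox 48 h cells and 10.73, 10.68 and 10.70 in control cells. The 3 groups did not overlap. Snord110 rose at 72 h by 0.52 on the log2 scale (95% interval 0.28 to 0.77, adjusted p = 0.0486), and the brightest probe set of Nop56 differed by -0.14. The other 2 probe sets of Nop56 differed by 0.42 and 0.44 at 72 h, so host and snoRNA cannot be set against each other from these values. The call was lost in a fit of the 2 groups alone (adjusted p = 0.123) and stood in 1 of 9 fits with 1 array left out.

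The other 9 snoRNAs did not pass at either time. Snord11, inside Nop58, read 8.72, 8.68 and 9.57 in Dox 72 h cells, 8.69, 8.24 and 8.20 in Dox 48 h cells and 8.18, 8.02 and 8.30 in control cells. The difference at 72 h was 0.83 (adjusted p = 0.135), to which replicate 3 gave the highest signal. Snora75, inside Ncl, read 8.89, 8.84 and 10.38 in Dox 72 h cells, 7.63, 7.86 and 7.46 in Dox 48 h cells and 9.59, 7.80 and 9.44 in control cells. The spread among control arrays was wider than the difference at 72 h of 0.43 (95% interval -0.82 to 1.67). At 48 h Snora75 differed from control by -1.30 (95% interval -2.54 to -0.05, adjusted p = 0.465). Dox 72 h cells differed from Dox 48 h cells by 1.72, without overlap (95% interval 0.48 to 2.97, adjusted p = 0.277). Dox 72 h replicate 3, the array with the highest lymphoid and erythroid markers, was the highest of its group for all 10 of these snoRNAs (35.4% of all probe sets). The labels give a sort of leukemia cells by FACS. The part of lymphoid and erythroid cells in the snoRNA signal was not tested.

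**Figure D5:**
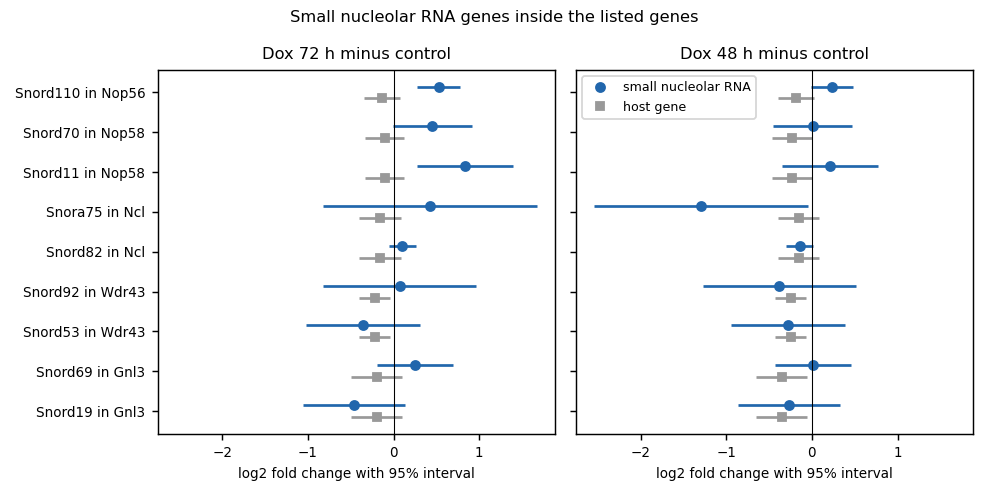
Log2 fold change with its 95% interval of 9 snoRNAs (circles) and of the genes that hold them (squares), Dox 72 h minus control on the left and Dox 48 h minus control on the right. Each host is drawn from its brightest probe set; Snord110 lies above 0 at 72 h, and Snora75 has the widest interval.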

How the data were processed

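RNA of leukemia cells sorted from spleen was hybridised to Affymetrix mouse gene arrays, 1 array per sample, 9 in all. The deposited values are log2 signals per probe set that the authors normalized between arrays: the study's methods name oligo and RMA, whereas the submitters' processing notes name MAS5 without a version. They were used as deposited, so any compression of low signals remains in every fold change. Of 41345 probe sets, 23521 had 1 gene symbol, 1820 had several and 16004 were not listed. Groups were compared with limma (3.58.1, R 4.3.3): 1 mean per group over all 9 arrays, eBayes, two-sided tests, and Benjamini-Hochberg adjustment over all 41345 probe sets, threshold 0.05. The background of a count is the share of all probe sets, dim ones included, that met the same rule. The scripts were tested on simulated data.

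The 33 genes and all lists were chosen with earlier results of these data known. Arrays are described one by one for genes past the threshold, filled up to 10 by the smallest F-test p, for the leading gene of each remaining role, and for Myc; the other lists give up to 3 genes each by the same p. RefSeq snoRNA genes inside a member were added, without a check of strand. The alternatives were quantile normalization, median centring, leaving out dim probe sets, fitting only the 2 groups compared, a replicate block, an intensity trend, the mean of all probe sets of a gene, and leaving out each array. No 2 arrays were identical (correlations 0.964 to 0.991). The number of arrays limits the precision.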

Additional observations from a re-analysis of the deposited data

How the results depend on the processing

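The sign of the median over the list in both comparisons with control held in every setting tried, and its one call did not. The count of 1 higher gene at 72 h, Gar1, became 0 with quantile normalization, with only the 2 groups compared, with an intensity trend, without each array in turn (0 to 0 over the 9 fits) and without Dox 72 h replicate 3 and control replicate 3 together, the last chosen after seeing the data. The replicate numbers were not taken to pair the samples: deviations of same-numbered arrays correlated from -0.30 to 0.21 over all probe sets. For Dox 72 h and control they correlated by 0.13, 0.07 and 0.21 (0.22, 0.51 and 0.48 over the 29 genes), each array best with its own number, a hint from the data and not the design, whereas for Dox 48 h and control all 3 values were negative. With the replicate block the count was 0 as well (Gar1 adjusted p = 0.0965). With it the 72 h calls of Lsg1, Nmd3, Urb2 and Snord110 were lost too (adjusted p = 0.0948, 0.0962, 0.0829 and 0.113). With dim probe sets left out, so that fewer were tested, 1 gene was lower at 72 h (Polr1a, adjusted p = 0.0412) and 2 passed the F test, and with median centring 1 passed it; over the fits without 1 array the F test called 0 to 1, and 0 to 1 genes were lower at 48 h. Median centring shifts all probe sets of an array by the same amount. It moved the median log2 fold change of the list at 72 h to -0.047, and that of all probe sets from -0.0082 to 0.082. The median over the fits without 1 array was -0.16 to -0.08 at 72 h and -0.15 to -0.05 at 48 h.

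Differences near 0 changed sign with the scaling. For median centring this follows from the common shift of each array, and for quantile normalization the cause was not tested. With quantile normalization these were Polr1a (-0.0012) and Snord70 (-0.012) at 48 h and Pes1 between Dox 72 h and Dox 48 h (0.018). With median centring they were Gar1 (0.010), Znrd1 (0.014) and Polr1c (0.0020) at 48 h, Pprc1 (0.0072), Myc (0.020) and Znhit3 (0.054) at 72 h, and Pes1 between Dox 72 h and Dox 48 h (0.049). Without 1 array, the 48 h differences that changed sign ranged from -0.011 to 0.107 for Emg1, -0.093 to 0.037 for Gar1, -0.116 to 0.030 for Heatr1, -0.069 to 0.221 for Mlxip, -0.018 to 0.058 for Polr1a, -0.079 to 0.032 for Polr1c, -0.037 to 0.131 for Pprc1, -0.0085 to 0.103 for Rplp0, -0.042 to 0.070 for Snord69, -0.114 to 0.129 for Snord70, -0.090 to 0.158 for Snord91a and -0.075 to 0.038 for Znrd1. At 72 h they ranged from -0.164 to 0.027 for Mxd1, -0.157 to 0.051 for Myc, -0.144 to 0.751 for Snora75, -0.656 to 0.016 for Snord53, -0.0084 to 0.393 for Snord69, -0.527 to 0.032 for Snord91a and -0.404 to 0.327 for Snord92. Between Dox 72 h and Dox 48 h they ranged from -0.034 to 0.046 for Pes1 and -0.033 to 0.076 for Wdr43. Some differences that changed sign without 1 array were not near 0 with all arrays. At 72 h these were Snora75 (0.43), Snord53 (-0.35), Snord69 (0.25) and Snord91a (-0.21).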

Other observations

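Genes of the wider pathway outside the 33 genes had values of both signs at 72 h, and none of those named here passed the adjusted threshold in a comparison with control. Higher means were seen for Emg1, a methyltransferase of 18S ribosomal RNA (log2 fold change 0.39 at 72 h, adjusted p = 0.195, and 0.06 at 48 h), and for Polr1c, a subunit shared by RNA polymerases I and III (0.25, adjusted p = 0.374, and -0.03). Lower means were seen for Nol6, a factor of the small subunit processome (-0.32, adjusted p = 0.0788, and -0.15), for Shq1, a chaperone that assembles box H/ACA snoRNPs (-0.31, adjusted p = 0.0896, and -0.28), and for the cell cycle genes Rrm2, a subunit of ribonucleotide reductase (-0.32, adjusted p = 0.108, and -0.28), and Plk1, a mitotic kinase (-0.27, adjusted p = 0.0807, and -0.08). Among ribosomal protein genes, Rps27 had log2 fold changes of 0.40 and 0.42 (adjusted p = 0.179 at 72 h and 0.274 at 48 h).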
